A study of Mus musculus with 10 samples.

Results

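The 6 genes described here are the Gadd45 genes Gadd45a, Gadd45b and Gadd45g and the Btg genes Btg1, Btg2 and Btg3, 2 families of stress-induced genes that restrain cell growth. They were chosen by symbol: the platform annotation maps 10 of the 22626 non-control probe sets to them, 5 to Gadd45 genes and 5 to Btg genes. Of these 10 probe sets, 9 were bright enough to be tested, together with 13575 probe sets in all. RNA of mouse kidneys had been hybridised to 10 one-colour Affymetrix arrays. All mice were male C57/BLACK6 animals of 7 weeks and about 20 g, and all were injected with 4-thiouridine (s4U, 200 µM), a nucleoside that marks RNA made after the injection, and with 34 µCi of tritiated cytidine in 1 ml of saline. Normal mice were otherwise untreated. Their injections were at 0 h and 1 h, and the kidneys were taken at 2 h. In the other mice the vessels of the left kidney were clamped for 45 min under ether anaesthesia. These mice were injected 1 h and 2 h after reperfusion, and the unclamped, contralateral kidney was taken at 3 h. No sham operation is described, so surgery, anaesthesia and time of removal cannot be told apart from the kidney group. Each kidney group has 2 arrays for total RNA, 2 for the same kind of RNA after amplification and 1 for newly transcribed RNA, the fraction that carries s4U. The labels' protocol also names water as a control for s4U, but no array here is labelled as such.

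Gadd45 proteins are small acidic proteins that bind the kinase Map3k4 and thereby switch on the p38 and JNK stress kinases. They also bind Pcna, the cyclin-dependent kinase Cdk1 and the inhibitor Cdkn1a (p21), and take part in cell cycle arrest and DNA repair. Btg proteins belong to the BTG/TOB family, which binds the Cnot7 and Cnot8 subunits of the CCR4-NOT complex, the main enzyme that shortens poly(A) tails of mRNA. Gadd45a and Btg2 are known targets of p53, and several members of both families are early response genes with short-lived mRNA. In the kidney, Gadd45 genes are known to be induced in stressed tubule cells.

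The stretches of 250 bases before the start of each gene were taken from RefSeq (build GRCm38.p6), which held 7 promoters for the 6 genes. They were searched on both strands for 7 motifs: the AP-1 motif TGACTCA, the full cAMP response element TGACGTCA (CRE), its core TGACG, the E-box motif CACGTG, the forkhead motif GTAAACA, the motif TATAAA of the TATA box, and the CCAAT box. Each full CRE also holds the core on both strands. The sequences shown are those of the 4 genes that passed a test between kidneys on at least 1 probe set. They run 5′ to 3′ on the gene's strand, and capitals mark the matches.
Gadd45a: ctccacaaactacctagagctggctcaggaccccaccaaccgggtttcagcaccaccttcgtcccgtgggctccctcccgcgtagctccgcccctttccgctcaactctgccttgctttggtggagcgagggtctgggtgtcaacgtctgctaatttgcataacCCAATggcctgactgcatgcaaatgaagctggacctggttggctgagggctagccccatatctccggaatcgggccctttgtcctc
Gadd45b: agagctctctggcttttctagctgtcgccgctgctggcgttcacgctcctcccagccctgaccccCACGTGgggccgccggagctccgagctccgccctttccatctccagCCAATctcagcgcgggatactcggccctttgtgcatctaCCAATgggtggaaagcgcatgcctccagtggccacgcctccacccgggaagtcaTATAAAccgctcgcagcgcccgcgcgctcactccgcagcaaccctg
Gadd45g: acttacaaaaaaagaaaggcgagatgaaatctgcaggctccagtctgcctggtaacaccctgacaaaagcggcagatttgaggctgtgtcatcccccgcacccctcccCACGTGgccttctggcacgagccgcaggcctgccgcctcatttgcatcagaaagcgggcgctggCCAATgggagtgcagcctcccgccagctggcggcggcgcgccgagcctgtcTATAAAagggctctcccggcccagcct
Btg2: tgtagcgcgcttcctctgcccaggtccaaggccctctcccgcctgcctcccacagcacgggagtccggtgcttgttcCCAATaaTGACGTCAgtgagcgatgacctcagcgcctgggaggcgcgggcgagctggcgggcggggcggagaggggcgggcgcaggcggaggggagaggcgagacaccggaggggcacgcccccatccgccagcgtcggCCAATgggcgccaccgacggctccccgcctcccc
These lie at chr6:67037408-67037657 (minus strand), chr10:80929841-80930090 (plus strand), chr13:51846425-51846674 (plus strand) and chr1:134079156-134079405 (minus strand).

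Gadd45b and Gadd45g each have an E-box (185 and 142 bases before the start), a CCAAT box nearer the start and a TATA box (46 and 27 bases before it). Gadd45a has a CCAAT box, 86 bases before the start, and no other match. Btg2 has a full CRE at 166 bases, with 2 CRE core matches that overlap it, between CCAAT boxes at 173 and 34 bases. Btg1 has 2 CRE core matches, a forkhead match, a CCAAT box and a TATA box, and the 2 listed starts of Btg3 have a CCAAT box alone. Among the 32851 promoters of the same 250 bases in the RefSeq table, 6.02% hold the E-box, 12.4% the TATA box, 33.85% a CCAAT box, 1.55% the full CRE, 17.8% the CRE core, 3.17% the forkhead motif and 4.46% the AP-1 motif, of which the 7 promoters hold 0. A match describes the letters only.

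**Figure D1:**
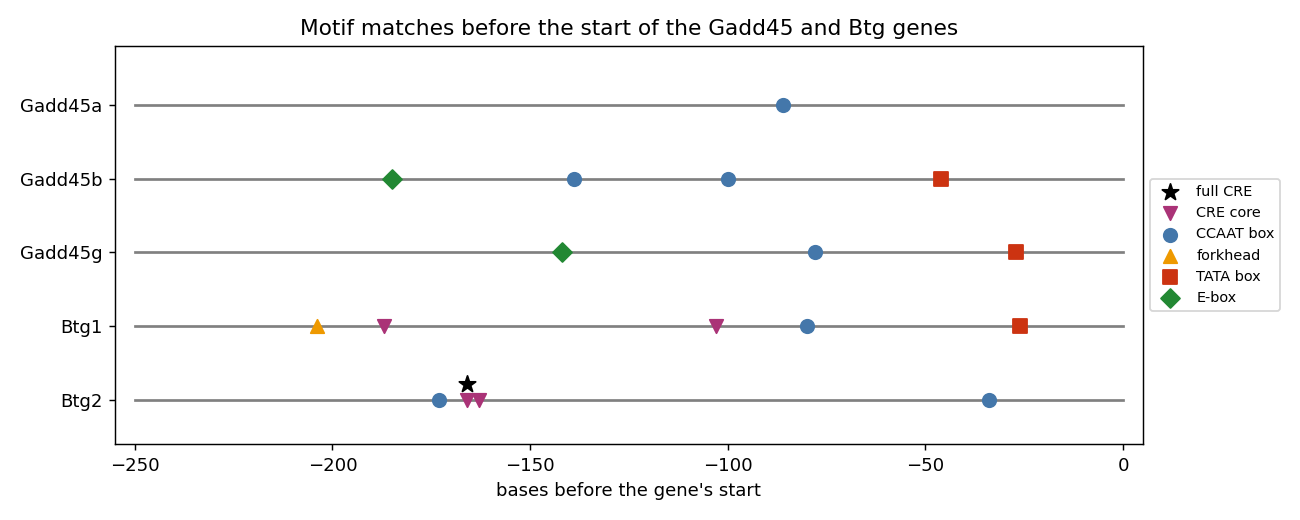
Positions of the motif matches in the 250 bases before the start of 5 genes (x axis: bases before the start; each symbol is 1 match). Gadd45b and Gadd45g each carry an E-box, a CCAAT box and a TATA box, and Btg2 alone of the 5 carries a full CRE; Btg3, with 2 listed starts, is not drawn.

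The arrays differed in brightness and in 3′ bias. Median deposited signals in total RNA were 55.85 and 59.7 in normal and 40.4 and 41.6 in contralateral kidneys, without overlap. In amplified RNA they were 41.2 and 43.45 against 26.6 and 49.8. They were 70.2 on the normal and 18.6 on the contralateral newly transcribed array. The 3′/5′ signal ratio of the Gapdh control probe sets was 0.938 to 1.12 in total RNA, 4.21 to 6.23 in amplified RNA, and 12.7 and 68.9 in normal and contralateral newly transcribed RNA. Values below are therefore quantile-normalized log2 signals, in which only differences within a probe set are compared. Some directions depend on this step. Deposited Btg3 values in total RNA were 257.1 and 258 in normal against 256.2 and 233.8 in contralateral kidneys. Those of the second Gadd45b probe set were 58.4 and 55.7 against 52.6 and 55.4. The brighter Btg2 probe set had 195.4 and 224.2 against 193.5 and 168.6, and the dimmer one 110.7 and 110.3 against 91.7 and 86.6. The brighter Btg1 probe set overlapped, at 470.2 and 410.3 against 413.8 and 426.9. Deposited Gadd45g values there were 325 and 228.6 against 466.8 and 387.5, higher without normalization too. Gadd45a values, 76.5 and 74.8 against 152.4 and 130.3, were likewise higher. In newly transcribed RNA, deposited Btg3 values were 425.7 in normal and 154 in contralateral kidneys. Those of the dimmer Btg1 probe set were 566.8 and 240.5. Tubule markers were clear: 6 of 6 proximal tubule, 5 of 5 distal and 4 of 4 collecting duct markers passed the brightness filter. In whole tissue, fewer cells of a type and less RNA per cell cannot be told apart.

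Gadd45g, the family member best known as a cytokine-induced gene, was the one of the 6 whose contralateral signal was higher over all preparations by the test. Gadd45a rose in total RNA, and its contralateral effect differed between total and amplified RNA. Gadd45b was higher in every preparation after normalization, without passing on its brightest probe set. Of the 3 Btg genes, Btg2 passed in amplified RNA.

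**Figure D2:**
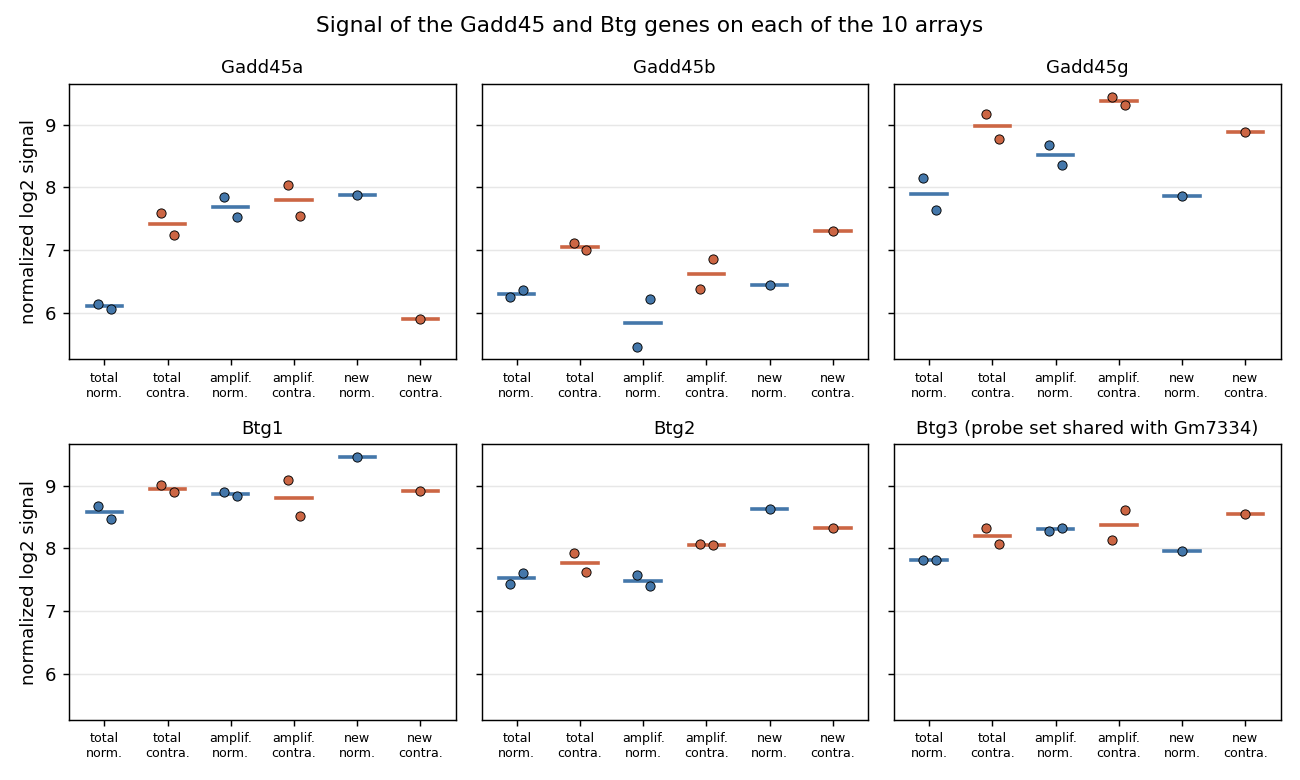
Normalized log2 signal (y axis) of each gene's brightest probe set on the 10 arrays, by preparation and kidney (blue, normal; red, contralateral; points, arrays; bars, group means; the newly transcribed groups have 1 array each). Gadd45g points of the contralateral kidney lie above the normal ones in each preparation, while for Gadd45a the order turns in newly transcribed RNA; levels of different probe sets are not comparable.

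In total RNA the Gadd45g signal was 8.16 and 7.63 in the normal kidneys and 9.17 and 8.77 in the contralateral ones. In amplified RNA it was 8.67 and 8.35 against 9.44 and 9.31. In newly transcribed RNA it was 7.87 on the normal and 8.88 on the contralateral array, from deposited intensities of 401.1 and 197.3 on arrays of unlike brightness. The groups did not overlap in either replicated preparation. Over all preparations the difference was 0.98 ± 0.15 (limma's standard error, here and below), a 1.97-fold rise (limma, Benjamini-Hochberg adjusted p = 0.0257). Of the 6 genes 1 was thus called higher, where 0.383% of all tested probe sets were. The call was lost in each of the 8 fits that left out 1 total or amplified array (0.88 to 1.05, adjusted p = 0.0582 to 0.103) and under median scaling (0.87, adjusted p = 0.0624). Without the 2 newly transcribed arrays the difference was 0.98 (adjusted p = 0.00600). In order of level, contralateral amplified RNA (9.38 ± 0.092, SD, n = 2) stood first, contralateral total (8.97 ± 0.28, n = 2) and contralateral newly transcribed RNA overlapped, and normal amplified RNA (8.51 ± 0.23, n = 2) followed. Normal total RNA (7.89 ± 0.37, n = 2) and the normal newly transcribed array overlapped at the bottom.

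Gadd45a, the p53 target of the family, showed another pattern. Its signal in total RNA was 6.14 and 6.07 in the normal kidneys and 7.59 and 7.24 in the contralateral ones. In amplified RNA the values were 7.84 and 7.52 against 8.05 and 7.54, so the groups overlapped. In newly transcribed RNA the normal array gave 7.87 and the contralateral array 5.90. The deposited intensities behind this last pair were 402.6 and 20.6, on arrays whose medians were 70.2 and 18.6. Gadd45a was thus close to the middle of the contralateral newly transcribed array and far above it on the normal one. By level, the normal newly transcribed array came first, then the contralateral amplified, normal amplified and contralateral total arrays, and each of these neighbours overlapped. A gap of 1.31 separated these from normal total RNA (6.10 ± 0.052, SD, n = 2) and the contralateral newly transcribed array.

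In total RNA, Gadd45a rose 2.48-fold (1.31 ± 0.20, limma adjusted p = 0.00755) and Gadd45g 2.11-fold (1.08 ± 0.19, adjusted p = 0.0185). Of the 6 genes 2 were thus called higher and 0 lower (also 0 lower at an unadjusted p under 0.05), where 1.58% of all tested probe sets were called higher and 0.331% lower. The median difference of the 6 genes was 0.56, against -0.0148 over all tested probe sets. Both calls were lost without the second normal array of total RNA or the first contralateral one: Gadd45a was then 1.28 (adjusted p = 0.0864) or 1.14 (adjusted p = 0.0886), and Gadd45g 0.82 (adjusted p = 0.170) or 0.88 (adjusted p = 0.162). For Gadd45g the call was also lost with no filter (adjusted p = 0.0692) and with no intensity trend (adjusted p = 0.0607). Gapdh 3′/5′ ratios in total RNA were 0.938 to 0.972 in normal and 1.03 to 1.12 in contralateral kidneys, without overlap. Their part in these results was not tested.

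In amplified RNA, Gadd45g rose 1.82-fold (0.86 ± 0.19, limma adjusted p = 0.0148), while Gadd45a differed by 0.11 ± 0.20 (adjusted p = 0.782). With Btg2, described below, 2 of the 6 genes were called higher and 0 lower, where 4.10% of all tested probe sets were higher and 6.22% lower. Again 0 of the 6 were lower at an unadjusted p under 0.05, and their median difference was 0.34, against 0.0205 over all tested probe sets. The Gadd45g call was lost without the second normal array of amplified RNA (0.70, adjusted p = 0.151) or the first contralateral one (0.80, adjusted p = 0.0668). The contralateral effect on Gadd45a was smaller in amplified than in total RNA by 1.20 on the log2 scale (the interaction was -1.20 ± 0.28, adjusted p = 0.0321). Of the 6 genes 1 was called in this comparison of effects, in the lower direction. Of all tested probe sets 4.46% were called in either direction, 3.82% lower and 0.641% higher. Alternatives that vary only the filter or the intensity trend leave the interaction estimate unchanged. The direction held in all 20 alternatives (-1.46 to -0.92), and 11 of the 20 kept the call (adjusted p = 0.00876 to 0.150).

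In newly transcribed RNA there is 1 array per kidney, so these differences have no replicate check. Gadd45g was higher and Gadd45a lower on the log2 scale (differences of 1.01 and -1.98). By a log2 difference of at least 1, then, 1 of the 6 genes was higher and 1 lower, where 14.4% of all tested probe sets were higher and 18.5% lower. Gadd45a kept this side under 5 alternatives (-2.24 to -1.55), whereas Gadd45g was 0.45 under median scaling. The mean of probe sets, 1 of these alternatives, cannot change Gadd45a, which has 1 probe set. Over all preparations Gadd45a differed by 0.17 ± 0.40 (adjusted p = 0.841), and by -0.18 as the mean of its 3 effects.

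**Figure D3:**
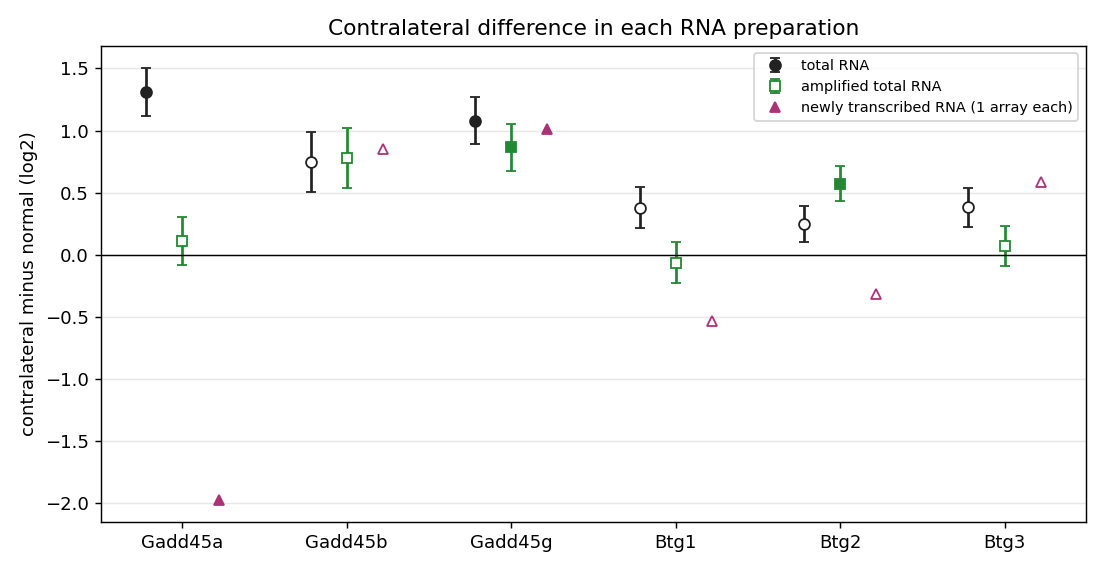
Contralateral minus normal log2 signal (y axis) of each gene by RNA preparation (points, limma estimates; bars, standard errors; newly transcribed RNA has 1 array per kidney and no bar; filled symbols, adjusted p under 0.05 or, for newly transcribed RNA, a difference of at least 1). The 3 Gadd45g symbols lie close together between 0.86 and 1.08, and those of Gadd45a run from 1.31 to -1.98.

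Gadd45b, which is induced by inflammatory cytokines and growth factors such as TGF-beta, was measured by 3 probe sets. On the brightest, total RNA gave 6.25 and 6.36 in normal and 7.11 and 6.99 in contralateral kidneys. Amplified RNA gave 5.46 and 6.23 against 6.38 and 6.86, and newly transcribed RNA 6.45 against 7.30. Deposited values of this probe set were 83.6 and 93.8 against 109.5 and 107.1 in total RNA. In amplified RNA they overlapped, at 30.7 and 66.3 against 45.9 and 134. On the newly transcribed arrays, of unlike brightness, they were 132.4 in normal and 61.5 in contralateral RNA, the opposite order. After normalization the contralateral arrays were higher without overlap in all 3 preparations on this probe set. The 2 normal amplified arrays lay nearly as far apart as the group means. The difference was 0.75 ± 0.24 in total RNA (limma adjusted p = 0.172), 0.78 ± 0.24 in amplified RNA (adjusted p = 0.0662) and 0.85 in newly transcribed RNA. Over all preparations it was 0.78 ± 0.17, 1.72-fold (adjusted p = 0.0872), and did not pass.

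The second Gadd45b probe set also had its contralateral arrays on top in every preparation. Its signals were 5.82 and 5.68 against 6.10 and 6.12 in total RNA, 5.53 and 5.63 against 6.17 and 6.42 in amplified RNA, and 5.70 against 7.46 in newly transcribed RNA. It rose in amplified RNA (0.71 ± 0.17, limma adjusted p = 0.0227), where the brightest probe set missed the threshold. In total RNA it differed by 0.36 ± 0.17 (adjusted p = 0.363), and in newly transcribed RNA by 1.76, more than the brightest probe set. With the mean of both probe sets Gadd45b passed over all preparations (0.78, adjusted p = 0.0437) and in amplified RNA (0.75, adjusted p = 0.0280). The third probe set fell below the brightness filter. Its contralateral differences were 0.01 in total RNA, -0.05 in amplified RNA and 0.58 in newly transcribed RNA, with signals of 4.59 to 5.49.

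Btg1, a growth inhibitor abundant in resting cells, was measured by 2 probe sets. The brighter gave 8.68 and 8.47 in normal against 9.0 and 8.90 in contralateral total RNA, 8.89 and 8.83 against 9.08 and 8.51 in amplified RNA, and 9.46 against 8.92 in newly transcribed RNA. The groups parted in total RNA and overlapped in amplified RNA. Its difference was 0.38 ± 0.17 in total RNA (limma adjusted p = 0.322), -0.06 ± 0.17 in amplified RNA (adjusted p = 0.853) and 0.02 ± 0.17 over all preparations (adjusted p = 0.967). The dimmer gave 7.31 and 7.08 against 7.84 and 7.84 in total RNA, the widest gap of any Btg probe set there, without passing (0.64 ± 0.16, adjusted p = 0.0752). In newly transcribed RNA the 2 probe sets pointed in opposite directions, -0.54 and 0.76.

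Btg2, the p53-induced member of the Btg family, was measured by 2 probe sets as well. On the brighter, total RNA gave 7.43 and 7.60 in normal and 7.92 and 7.61 in contralateral kidneys. Amplified RNA gave 7.57 and 7.39 against 8.06 and 8.05, and newly transcribed RNA 8.63 against 8.31. The contralateral signal was thus clearly apart in amplified RNA, nearly touching in total RNA and lower in newly transcribed RNA. Deposited values in amplified RNA overlapped, at 189.3 and 173.2 against 182.8 and 343.1. Btg2 rose 1.49-fold in amplified RNA (0.57 ± 0.14, limma adjusted p = 0.0277), with 0.25 ± 0.14 in total RNA (adjusted p = 0.458) and 0.27 ± 0.16 over all preparations (adjusted p = 0.435).

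The call for Btg2 rests on 1 probe set and on every amplified array. It was lost when any of the 4 amplified arrays was left out (adjusted p = 0.0692 to 0.214), with no intensity trend (adjusted p = 0.0516) and with the mean of its probe sets (0.06, adjusted p = 0.826). The dimmer probe set gave 5.72 and 5.77 in normal against 5.55 and 5.04 in contralateral amplified RNA, the opposite direction (-0.45 ± 0.20, adjusted p = 0.192). It differed by 0.17 ± 0.20 in total RNA (limma adjusted p = 0.760), 0.09 in newly transcribed RNA and -0.09 ± 0.16 over all preparations (adjusted p = 0.779).

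Btg3, an antiproliferative family member regulated by p53 and the cell cycle, has 1 probe set, which the annotation also maps to Gm7334, so its values are uncertain as a measure of Btg3 alone. Total RNA gave 7.81 and 7.81 in normal and 8.32 and 8.07 in contralateral kidneys. Amplified RNA gave 8.28 and 8.32 against 8.13 and 8.61, and newly transcribed RNA 7.96 against 8.54. The groups parted in total RNA and overlapped in amplified RNA. No comparison between kidneys passed: the difference was 0.38 ± 0.16 in total RNA (limma adjusted p = 0.302), 0.07 ± 0.16 in amplified RNA (adjusted p = 0.826) and 0.30 ± 0.14 over all preparations (adjusted p = 0.361).

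**Figure D4:**
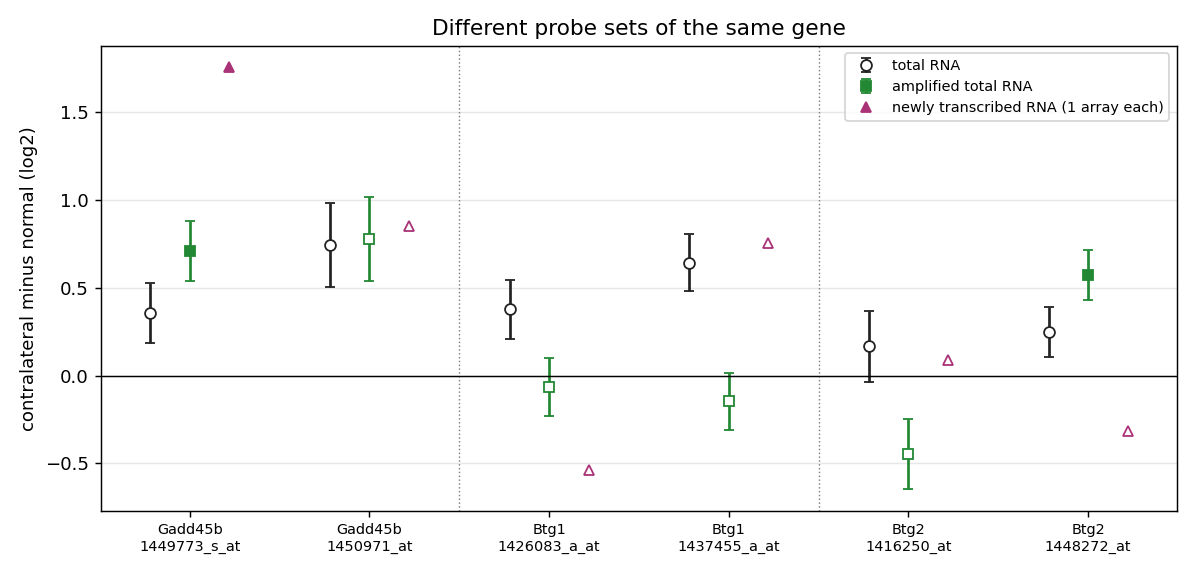
Contralateral minus normal log2 signal (y axis) of the 6 tested probe sets of Gadd45b, Btg1 and Btg2, the genes with several, by preparation (points, limma estimates; bars, standard errors; newly transcribed RNA has no bar; filled symbols, adjusted p under 0.05 or, for newly transcribed RNA, a difference of at least 1). The Gadd45b probe sets lie above 0 throughout, whereas those of Btg2 part in amplified RNA at 0.57 and -0.45.

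Newly transcribed RNA was then set against amplified total RNA, both linearly amplified. These preparations also differ in the selection for s4U and in 3′ bias (Gapdh ratios of 12.7 and 68.9 against 4.21 to 6.23). The part of recent synthesis in the differences was not tested. Btg2 was the one gene of the 6 that was higher in newly transcribed RNA by the test (0.70 ± 0.21, 1.63-fold, limma adjusted p = 0.0340), where 11.9% of all tested probe sets were. The excess was 1.15 in normal and 0.26 in contralateral kidneys, and was 0.34 (adjusted p = 0.168) without the normal newly transcribed array. The call stood in 11 of 19 alternatives. Its dimmer probe set differed by -0.33 ± 0.22 (adjusted p = 0.284). The dimmer Btg1 probe set was higher by 0.89 ± 0.25 (adjusted p = 0.0236) and the brighter one by 0.36 ± 0.23 (adjusted p = 0.278).

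Among the Gadd45 genes, Gadd45b differed by 0.64 ± 0.23 (limma adjusted p = 0.0589), Gadd45g by -0.57 ± 0.20 (adjusted p = 0.0602) and Gadd45a by -0.85 ± 0.55 (adjusted p = 0.275). The wide error of Gadd45a covers 0.19 in normal and -1.90 in contralateral kidneys. Btg3 differed by -0.09 ± 0.20 (adjusted p = 0.771).

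Signals also differed between the preparations of total RNA. Amplified against unamplified total RNA, Gadd45g was higher by 0.51 ± 0.17 (limma adjusted p = 0.0344), the one call among the 6 brightest probe sets, where 20.7% of all tested probe sets were higher and 17.6% lower; it stood in 14 of 20 alternatives. The dimmer Btg2 probe set fell by 1.18 ± 0.18 (adjusted p = 0.000813), while the brighter one differed by 0.13 ± 0.18 (adjusted p = 0.596). Gadd45a differed by 0.98 ± 0.45 (adjusted p = 0.112), which covers a wide gap in normal and a narrow one in contralateral kidneys.

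The other genes of these pathways give the setting. Of 72 genes in 6 lists, 12 rose and 0 fell in contralateral total RNA (limma; 2 were lower at an unadjusted p under 0.05), and 15 rose and 4 fell in amplified RNA. Of all tested probe sets, 1.58% were called higher and 0.331% lower in total RNA, and 4.10% and 6.22% in amplified RNA. The median differences of the 72 genes were 0.13 and 0.15, against -0.0148 and 0.0205 over all tested probe sets. Over all preparations 7 rose and 0 fell, where 0.383% of all tested probe sets were higher and 0.0589% lower. The median there was 0.13, against -0.00450 over all tested probe sets, and 6 of the 72 were lower at an unadjusted p under 0.05. Leaving out 1 array, which was chosen as an alternative after seeing the data, gave 6 to 13 rises in total RNA (fewest without the first contralateral array of total RNA), 6 to 15 in amplified RNA (fewest without its first normal array) and 3 to 12 over all preparations. The 3 rises came without the first normal or first contralateral array of amplified RNA, either normal array of total RNA or its second contralateral array, and the 12 without either newly transcribed array. Without both newly transcribed arrays, also chosen after seeing the data, 12 rose over all preparations.

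In the stress kinase pathway, 1 of 14 tested genes rose in total RNA and 3 in amplified RNA, with 0 falls and 0 lower at an unadjusted p under 0.05. Dusp1, the phosphatase that switches p38 and JNK off, rose by 1.20 ± 0.13 in total RNA (limma adjusted p = 0.000828) and by 0.73 ± 0.13 in amplified RNA (adjusted p = 0.00445). The JNK genes Mapk8 (0.64 ± 0.15) and Mapk9 (0.58 ± 0.15) rose in amplified RNA, but another probe set of each differed there by -0.80 and -0.39. The Gadd45-binding kinase Map3k4 and the other listed kinases were not called. Leaving out 1 array gave 0 to 4 rises in amplified RNA (0 without its second normal array, 1 without its first normal or first contralateral array) and 1 to 2 in total RNA, with 2 without either contralateral array of amplified RNA or the contralateral newly transcribed array.

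Among 9 tested partners of Gadd45 in the cell cycle and DNA repair, Cdkn1a, the p21 inhibitor of cyclin-dependent kinases, was the one that passed in the tests of total and amplified RNA. It rose by 2.09 ± 0.14 in total RNA and 2.15 ± 0.14 in amplified RNA. Between the newly transcribed arrays Cdkn1a was higher by 3.12 and the DNA repair enzyme Apex1 by 1.35, and the cyclin Ccnd1 was lower, at -1.42. By a log2 difference of at least 1, 11 of the 72 genes in all lists were higher there and 10 lower. Of all tested probe sets 14.4% were higher and 18.5% lower, so these counts were near the shares of the whole array. Of 20 other growth arrest and DNA damage inducible genes, 4 rose in total RNA and 5 rose and 3 fell in amplified RNA. The mTORC1 inhibitors Ddit4 (1.55 ± 0.11 in total, 1.20 ± 0.11 in amplified RNA) and Sesn2 (1.88 ± 0.25 and 1.02 ± 0.25) rose in both, as did the p53 targets Sesn1 (0.80 ± 0.14 and 1.02 ± 0.14) and Trp53inp1 (1.12 ± 0.25 and 1.29 ± 0.25). The other Sesn2 probe set differed by 1.94 in total RNA, which passed (limma adjusted p = 0.000865), and by 0.27 in amplified RNA, which did not (0.472). The other 2 Sesn1 probe sets passed in amplified RNA (0.90 and 0.96) and not in total RNA (0.52 and 0.68). Leaving out 1 array gave 2 to 4 rises among these 20 genes in total RNA (2 without either contralateral array of total RNA), and 2 to 5 rises and 0 to 3 falls in amplified RNA (2 rises without its first and 0 falls without its second normal array).

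Few partners of the Btg proteins were called. Of 2 tested BTG/TOB relatives 0 were called by limma in the contralateral tests, and 0 had an unadjusted p under 0.05. Of 13 CCR4-NOT subunits and cofactors 0 were called in total RNA (median 0.0753; 1 had an unadjusted p under 0.05), and in amplified RNA the deadenylase subunit Cnot6 rose by 0.69 ± 0.12 and its relative Cnot6l fell by 0.83 ± 0.17. A second Cnot6 probe set fell by 1.10 there (limma adjusted p = 0.00291), so the direction for Cnot6 depends on the probe set. The other 3 Cnot6l probe sets differed by 0.29, 0.41 and -0.0429 in amplified RNA and did not pass, so its fall rests on 1 probe set. Leaving out 1 array gave 0 to 2 rises and 0 to 3 falls among the 13 genes in amplified RNA (0 rises without its first normal array, 0 falls without either normal array, 2 rises without its first and 3 falls without its second contralateral array).

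Of 15 tested transcription factors known to act on Gadd45 or Btg genes, 6 rose in total RNA and 5 in amplified RNA, with 0 falls (1 was lower at an unadjusted p under 0.05 in each) and medians of 0.45 and 0.27. Cebpd, an acute phase factor, rose by 2.20 ± 0.17 and 1.90 ± 0.17, and the immediate early factors Fos by 0.86 ± 0.19 and 1.29 ± 0.19 and Egr1 by 1.08 ± 0.16 and 0.75 ± 0.16. The other Cebpd probe set differed by 0.63 in total and 0.60 in amplified RNA and did not pass (limma adjusted p = 0.319 and 0.204). Leaving out 1 array gave 2 to 6 rises in total RNA (2 without the second normal or the first contralateral array of total RNA) and 2 to 5 in amplified RNA (2 without the first normal array of amplified RNA). Cebpb rose by 1.32 ± 0.14 in total RNA and differed by 0.18 ± 0.14 in amplified RNA. Like that of Gadd45a, its effect was smaller in amplified than in total RNA by the test of the difference (-1.14 ± 0.20, limma adjusted p = 0.00789). Between the newly transcribed arrays, Dusp1 and Trp53inp1 differed by -0.60 and -0.64, opposite to their rises in total and amplified RNA. On their brightest probe sets Ddit4, Sesn1, Sesn2, Cdkn1a, Cebpd, Fos and Egr1 were positive there too.

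**Figure D5:**
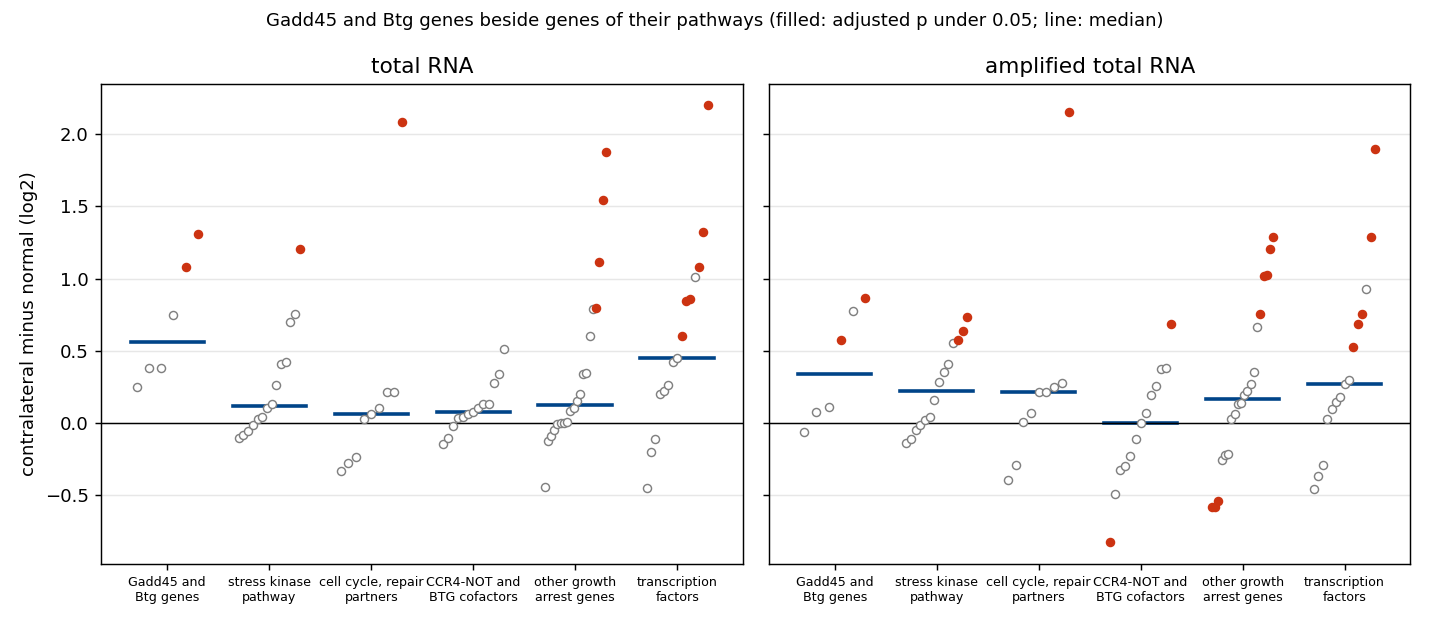
Contralateral minus normal log2 signal (y axis) of the 6 Gadd45 and Btg genes and of 5 of the 6 lists of pathway genes, in total RNA (left) and amplified total RNA (right); each point is a gene, filled where the adjusted p was under 0.05, and lines are list medians. Cdkn1a is the filled point at 2.09 and 2.15 among the Gadd45 partners, and the transcription factors have the highest median of the 5 lists, 0.45 and 0.27.

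Markers of other cells moved with some of these results. The summed normalized signal of the leukocyte markers, of which 5 of 10 on the array passed the filter, was 1676 to 1824 in normal and 1711 to 1855 in contralateral total RNA, 1538 to 1604 against 1802 to 2179 in amplified RNA, and 1290 against 2538 in newly transcribed RNA. For adipose, muscle and adrenal markers, of which 3 of 8 passed, the sums were 264 to 289 against 311 to 314, 251 to 280 against 293 to 361, and 194 against 542. Endothelial markers, of which 5 of 5 passed, summed to 1361 to 1454 against 1251 to 1504 in total RNA, 1115 to 1163 against 1180 to 1224 in amplified RNA, and 612 against 406 in newly transcribed RNA. Those of the proximal tubule summed to 13961 to 15095 against 13989 to 14145, 14684 to 15251 against 14079 to 14287, and 11379 against 9334. Distal tubule markers summed to 8760 to 9222 against 9236 to 9512, 8756 to 9526 against 8662 to 9479, and 8287 against 7418. For the collecting duct the sums were 1032 to 1194 against 1251 to 1490, 1402 to 1761 against 1650 to 1803, and 1040 against 1158. Between newly transcribed and amplified RNA, 4 of 5 endothelial and 4 of 6 proximal tubule markers were lower by the test. So were 3 of 5 distal, 2 of 4 collecting duct and 2 of 2 podocyte markers. The same held for 1 of 5 leukocyte, 1 of 1 red blood cell and 0 of 3 adipose, muscle and adrenal markers. Over all tested probe sets, 16.7% were lower. The part of these markers in the differences of the Gadd45 and Btg genes was not tested.

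The genes whose signals were most alike over the 10 arrays, by Pearson's r across arrays that share preparation and kidney group, were Vmp1, Ide and Ahi1 for Gadd45a (r of 0.92 each), and Klf4 (0.94), Ier2 (0.92) and Ces1g (0.92) for Gadd45g. Klf4 and Ier2 are growth-responsive early genes. For Gadd45b they were Polr3e (0.94), Tpst2 (0.92) and Nrbp2 (0.90). Those nearest to Btg1 were Per2 (0.91), Dapk1 (0.89) and Lifr (0.89), those nearest to Btg2 were Ahctf1, Mid1ip1 and U2surp (0.95 each), and those nearest to Btg3 were Mark3 (0.90), Dus1l (0.88) and Anxa1 (0.87).

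Over the 8 total and amplified arrays alone, the nearest genes were Ccn2, Riok2 and Pcmt1 for Gadd45a (r of 0.97, 0.97 and 0.96) and Actr6, Klf4 and Nr1h4 for Gadd45g (0.99, 0.98 and 0.98). Gadd45b was most like Edn1, Niban2 and Nos3 (0.95 each), of which Edn1 and Nos3 encode endothelin and the endothelial nitric oxide synthase. The nearest to Btg1 were Dpf2, Rsrp1 and Eapp (0.95, 0.92 and 0.89), to Btg2 Tprgl, Il16 and Ercc8 (0.98, 0.96 and 0.96), and to Btg3 Cdk8, Fam76a and Paip2 (0.94 each). Klf4 was the one gene named for the same member over both sets of arrays.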

How the data were processed

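Linear signal intensities were deposited by the authors, 1 for each probe set of an array. How they were summarised or scaled is not given in the sources used here. RNA was extracted with Qiagen RNeasy, then, per the labels' protocols, reverse-transcribed, linearly amplified and labelled with biotin by a T7-based strategy. After 64 control probe sets were set aside, a pseudocount of 11.8 (the 25th percentile over the table) was added, log2 was taken and the arrays were quantile normalized; log2 differences on this scale understate the change of dim genes. Probe sets with a mean above the 40th percentile were tested (13575). The platform annotation gives 1 symbol for 20380 probe sets, several for 691 and none for 1555. A gene is represented by its brightest probe set; the other probe sets of the 6 genes are given, and those of other named genes where they differ in call or direction.

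Tests were made with limma 3.58.1 under R 4.3.3 (lmFit, eBayes with an intensity trend) on all 10 arrays, with Benjamini-Hochberg adjustment over all tested probe sets and a threshold of 0.05. Effects over all preparations and comparisons of preparations came from an additive model, the others from 6 group means. The 2 lone newly transcribed arrays were compared by a log2 difference of at least 1. The fits were tested on simulated data. The titles call arrays of a group biological replicates. With 6 group means, p-values measure only the spread between these arrays, and their number limits the precision. In the additive model, standard errors and p-values also take in differences of the kidney effect between preparations. Whether arrays of different preparations share a mouse is not given. If they do, the additive model treats arrays of the same mouse as independent. The 6 genes, pathway lists, markers and tests were chosen with earlier results of these data known. From each list up to 4 called genes with the largest change could be named, and per member the 3 genes with the highest Pearson correlation; Mapk8, Mapk9, Cnot6 and Cnot6l fall under that rule. The alternatives tried were other pseudocounts, scalings, filters and models, the mean of a gene's probe sets, a replicate block and leaving out arrays. Other cell type markers (podocyte, endothelium, red blood cell) passed the filter for 2 of 3, 5 of 5 and 1 of 2.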

Additional observations from a re-analysis of the deposited data

Results flagged for a closer look

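The contralateral effect on Gadd45a differed between amplified and unamplified total RNA by the test of that difference (-1.20 on the log2 scale, limma adjusted p = 0.0321), with 1.31 in total RNA and 0.11 in amplified RNA. Calls in that comparison were skewed over the whole array, with 3.82% of all tested probe sets lower and 0.641% higher.

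The other differences between preparations involve the lone newly transcribed arrays and were not tested. They are listed because every array moved one way in one preparation and the opposite way in the other. For Gadd45a, higher in contralateral total RNA and lower in contralateral newly transcribed RNA, the newly transcribed minus total difference was -3.29. For Btg1 it was -0.91, from 0.38 in total RNA to -0.54 in newly transcribed RNA; the dimmer Btg1 probe set went from 0.64 to 0.76 and had no such turn. For Btg2 it was -0.57 against total RNA, where the nearest arrays were at 7.60 and 7.61, and -0.89 against amplified RNA. The dimmer Btg2 probe set differed by 0.17 in total, -0.45 in amplified and 0.09 in newly transcribed RNA, so it did not share these turns.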

How the results depend on the processing

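Values were recomputed under 23 settings, 5 to 21 for each gene value: of 762 recomputed gene values, 655 kept their direction and side of the threshold, 48 lost the call, 32 gained it and 27 changed sign. The single newly transcribed arrays, 2 arrays per other group and a contralateral newly transcribed array with a median of 18.6 limit what can be read. Unless a sentence gives one, the cause of a change was not tested.

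Counts of the 6 genes called were 1 for all preparations together, 2 in total RNA, 2 in amplified RNA, 2 in newly transcribed RNA, 1 for the difference between amplified and total effects, 1 for newly transcribed against amplified RNA and 1 for amplified against total RNA. Over all preparations the count was 0 under median scaling, 2 with the mean of probe sets and 3 with 6 group means. Array-wide, these settings called 47 of 13575, 92 of 9224 and 6054 of 13575, against 60 of 13575 as reported. The 3 calls with 6 group means thus stand beside calls for a large part of the array. In total RNA the count of the 6 genes was 1 with no filter and 1 with no intensity trend, and in amplified RNA 1 with no trend. In newly transcribed RNA it was 1 with the median as pseudocount and 1 under median scaling. The difference of effects gave 0 under 75th percentile scaling, with no filter and with no trend. Newly transcribed against amplified RNA gave 2 under 75th percentile scaling and 3 with the mean of probe sets. Array-wide, these settings called 3920 of 13575 and 2744 of 9224, against 3885 of 13575 as reported. Amplified against total RNA gave 2 under median scaling, 2 under 75th percentile scaling, 2 with the mean of probe sets and 4 without the newly transcribed arrays. Median scaling called 5577 of all 13575 tested probe sets, 75th percentile scaling 5233 and the fit without newly transcribed arrays 7909, against 5209 as reported. The mean of probe sets called 3531 of 9224. Leaving out 1 array gave 0 to 4 calls for amplified against total RNA and 0 to 2 for each other tested comparison.

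Signs changed for small differences. Over all preparations Gadd45a was -0.18 and Btg1 -0.0751 as the mean of 3 effects, and Btg1 was -0.0749 under median scaling; leaving out 1 array gave -0.0546 to 0.71 for Gadd45a and -0.0704 to 0.16 for Btg1. In amplified RNA leaving out 1 array gave -0.14 to 0.36 for Gadd45a, -0.35 to 0.22 for Btg1 and -0.17 to 0.32 for Btg3. For the difference of effects, Gadd45b was -0.0257 with the larger pseudocount and -0.35 to 0.42 with 1 array left out, Gadd45g -0.48 to 0.0493 with 1 array left out, and Btg2 -0.14 with the mean of probe sets. That mean also gave 0.11 for Btg1 in newly transcribed RNA and -0.52 for Btg2 in amplified against total RNA (limma adjusted p = 0.00897). With 1 array left out, Btg1 was -0.0433 to 0.19 in amplified against total RNA, and in newly transcribed against amplified RNA Btg3 was -0.27 to 0.0944 and Gadd45a -2.20 to 0.49.

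Between the newly transcribed arrays, the median over all tested probe sets was -0.21 under median scaling and 0.15 under 75th percentile scaling, and the share of higher among called probe sets was 28.1% and 55.1%, against 43.8%. That share moved from 41.6% to 29.0% in newly transcribed against amplified RNA and from 54.1% to 66.8% in amplified against total RNA under median scaling. Over all tested probe sets the calls ran from 12 to 6054 over all preparations (60 as reported; 6054 with 6 group means), 48 to 379 in total RNA (259) and 512 to 1475 in amplified RNA (1400).

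With the replicate number as a block, the counts of genes called were 1 for all preparations together, 2 in total RNA and 3 in amplified RNA, where Gadd45b was added (0.78, limma adjusted p = 0.0401), and 2 in newly transcribed against amplified RNA. In these 4 comparisons the block called 26, 277, 1429 and 2648 of all 13575 tested probe sets. The labels do not say whether equal numbers in different preparations mark the same mouse. Differences between replicates of 2 groups correlated at -0.07 to 0.10 across probe sets. The highest values were between total and amplified RNA of the same kidney group (0.0971 in normal and 0.0998 in contralateral kidneys). These low values do not settle whether the arrays are paired.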
